A study of Arabidopsis thaliana with 14 samples.

Results

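Gene expression in hda6-6, a loss-of-function mutant of the Arabidopsis histone deacetylase gene HDA6, was compared with that of Col wild-type plants across all genes, with most attention to functions outside flowering, ethylene and transposons. All 3 hda6-6 libraries and all 3 Col libraries of the series were used, and a gene was included when its RPKM (reads per kilobase of transcript, scaled to the total of the library) was above 0.1 in at least 3 of these 6 libraries. Of 33602 genes in the files, 22433 met this rule and 11169 did not.

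The series holds 14 poly-A RNA-seq libraries of whole 14-day-old seedlings grown under long days, all of cultivar Col-0: 3 each of Col wild type, hda6-6, hda5-1 and hda9-1, and 1 each of fld-6 and fve-4. The hda6-6 allele (also named axe1-5, labelled hda6 -/-) is a point mutation at an HDA6 splice site, so a transcript can still be counted. Each genotype is a single line, and an effect of the locus cannot be told apart from that of another difference between the lines. The mutants hda5-1 and hda9-1 carry alleles of other histone deacetylase genes and served here as a comparison group that leaves the Col libraries out.

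HDA6 removes acetyl groups from histone tails and acts with DNA methylation to keep repeats, transgenes and some genes silent. It also works with other chromatin proteins at active genes, including genes of stress and hormone responses. Loss of a deacetylase can therefore change transcript levels both at silent loci and, directly or through other regulators, at expressed ones.

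HDA6 itself (AT5G63110, TAIR10 chromosome 5, 25315506 to 25318347, minus strand) had RPKM of 8.58, 10 and 9.24 in Col and of 3.46, 3.62 and 2.84 in hda6-6. Every hda6-6 library lay below every Col library, and the log2 fold change was -1.46 ± 0.13 (SE, n = 3 and 3, limma adjusted p = 9.7e-05). Values in hda5-1 (9.28, 11.8 and 10.3) and hda9-1 (8.78, 9.83 and 11.2) overlapped those of Col, so the genotype labels matched the level of this gene. Depth estimated from the steps of the RPKM values was 21589000 to 23532000 reads in the Col libraries and 21354000 to 23769000 in the hda6-6 libraries, and replicates of a genotype correlated at r = 0.977 or more across genes. All 20 leaf photosynthesis genes were tested, whereas 3 of 12 seed genes and 1 of 7 pollen genes passed the filter. The summed RPKM of 14 root markers ranged from 1480 to 1816 in Col and from 1372 to 1743 in hda6-6, but their median log2 fold change was 0.91. Of these markers RHS13 and EXPA7, both root hair genes, rose. Without Col replicate 2 the number called higher was 7, and the call of EXPA7 was lost without Col replicate 3 or any hda6-6 replicate. In whole seedlings more cells of a type and more RNA per cell cannot be told apart.

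A gene was called when limma gave an adjusted p under 0.05 (Benjamini-Hochberg over all genes tested) and at least a 2-fold difference on the log2(RPKM + 0.1) scale. In hda6-6 against Col, 1832 genes were higher (8.17% of those tested) and 1152 were lower (5.14%). Counts of called members of gene lists and families below are to be set beside these shares. Against the mean of hda5-1 and hda9-1, 898 genes were higher (4.0%) and 198 were lower (0.883%). A gene can differ from this mean without differing from each mutant. Genes were included by their Col and hda6-6 libraries alone, so a gene expressed only in hda5-1 or hda9-1 could not be called lower. The excess of higher over lower genes is in part set by this rule. The higher genes included 231 of the 347 annotated pseudogenes tested, but most, 1533, were protein-coding, as were 1097 of the lower genes. Large differences were mostly rises: 132 genes were higher by 16-fold or more and 7 were lower by as much. Of the genes higher than in Col, 444 had RPKM of 0.1 or less in every Col library. These met the inclusion rule only through their 3 hda6-6 libraries, so their direction and lack of overlap were fixed by the rule.

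The overlap of both comparisons was counted in each direction. Of the 1832 genes above Col, 711 (38.8%) were also called above hda5-1 and hda9-1, which was 79.2% of the higher genes of that comparison. Of the 1152 genes below Col, 123 (10.7%) were also called below the other mutants, or 62.1% of the lower genes there. Both comparisons use the same hda6-6 libraries and the same genes, included by Col and hda6-6 alone. These overlaps are therefore not independent of each other, and the difference between the shares was not tested.

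**Figure D1:**
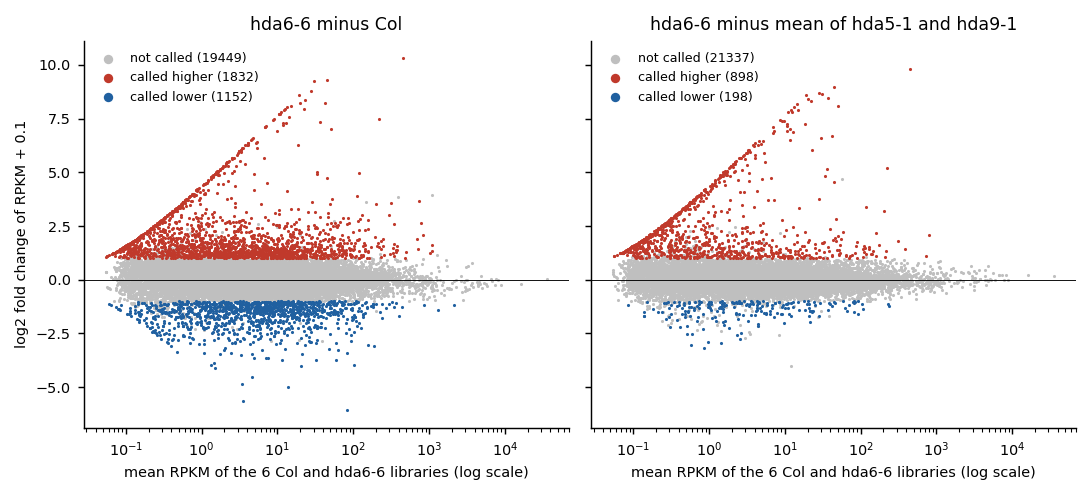
Log2 fold change of RPKM + 0.1 for each of 22433 genes against its mean RPKM over the 6 Col and hda6-6 libraries (log axis), for hda6-6 against Col (left) and against the mean of hda5-1 and hda9-1 (right). Red and blue points are genes called higher and lower (1832 and 1152 on the left, 898 and 198 on the right); the band of red points rising from the left edge holds genes near 0 in the comparison group.

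The largest rises were at genes with next to no transcript in Col. AT4G16215, an uncharacterized protein-coding gene (chromosome 4, 9179244 to 9179833, minus strand), had RPKM of 0.57, 0.622 and 0.618 in Col and of 993, 773 and 926 in hda6-6, a log2 fold change of 10.31 ± 0.11 (SE). The noncoding RNA gene AT2G15555 had 0.0395, 0.0431 and 0.0428 in Col and 87.3, 89.5 and 91.1 in hda6-6 (9.30 ± 0.11). The hda5-1 and hda9-1 libraries stayed far below these levels, the highest of those 6 libraries being 5.57 for AT4G16215 and 0.365 for AT2G15555.

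Of the 14 largest rises, 12 had every Col library at an RPKM of 1 or below, and all 14 were also called higher against hda5-1 and hda9-1. They were mostly short or uncharacterized genes: AT3G01345, AT5G41660, AT3G29633, AT2G13547, AT4G07965, AT3G28899 and AT3G25719 are annotated only as uncharacterized proteins, and AT2G01422 and AT1G67105 as noncoding RNAs. AT3G43722 and AT3G30778 have no entry in the RefSeq annotation, so their class could not be checked. The member with an annotated function was AT1G36240, of the ribosomal protein L7Ae/L30e family, which stood at 0 in each Col library and reached RPKM of 25, 15.2 and 24.7 in hda6-6. AT1G67105 had the highest start, with 1.78, 2.47 and 2.81 in Col and 404, 395 and 518 in hda6-6, and it stood at 20.6 to 26.3 in hda9-1. AT3G01345 also departed from Col in hda9-1, at 4.34, 9.57 and 1.23 against 43.8, 47.7 and 45.6 in hda6-6. Of these 14 genes, 4 were also high in the single fve-4 library: AT2G01422 at 129, above hda6-6 (77.9 to 91.6), AT1G67105 at 35.4, AT3G28899 at 33.3 and AT3G29633 at 11.6. AT2G01422 also stood at 1.77 to 2.03 in hda5-1, above every Col library.

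Several named genes beyond this ranking, chosen after their values were seen, were higher in hda6-6 than in every library of Col, hda5-1 and hda9-1. HISN6B (AT1G71920, chromosome 1, 27066948 to 27069166), which encodes histidinol-phosphate aminotransferase of histidine synthesis, had RPKM of 14.2, 12.7 and 14.9 in hda6-6, whereas each Col library listed it at 0. Among the 6 hda5-1 and hda9-1 libraries its highest value was 0.0935. Its paralog HPA1 had 6.65, 6.64 and 7.33 in Col and 8.66, 7.43 and 9.26 in hda6-6, a log2 fold change of 0.29 that did not pass the test (limma adjusted p = 0.0863). The coding sequences of both copies share 1252 of 1254 bases (99.8%), so reads of one can be counted for the other, and the counting rule for such reads is not given in the sources used here. HAK5, a high-affinity potassium transporter, rose from 2.35, 2.87 and 2.91 in Col to 29.4, 23.4 and 30.6 in hda6-6 (log2 3.31 ± 0.14), with 1.44 to 5.12 in the other mutants. QQS, an orphan gene that affects starch content, rose from 0.796, 1.34 and 0.627 to 12.2, 11.5 and 9.81 (3.52 ± 0.24). PHE1, a MADS-box gene known for its imprinted expression in the endosperm, stood at 0.455, 0.257 and 0.602 in Col and at 10.4, 9.68 and 8.33 in hda6-6 (4.20 ± 0.25). For HAK5, QQS and PHE1 no hda6-6 library overlapped with any library of Col, hda5-1 or hda9-1, and each was called higher in both comparisons. PHE1 in hda5-1 and hda9-1 (1.55 to 2.32) also lay above Col. Other type I MADS-box genes, AGL34, AGL36 and AGL85, rose to RPKM between 0.229 and 0.769 from 0 to 0.0951, levels at which the call depends on the pseudocount.

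The largest falls, ranked among genes with a mean RPKM of at least 2 in Col, began with ORA47 (AT1G74930, chromosome 1, 28143851 to 28145058), an AP2/ERF transcription factor induced by wounding and jasmonate, which had RPKM of 146, 204 and 133 in Col and of 2.33, 1.35 and 3.66 in hda6-6, a fall by 6.07 ± 0.32 on the log2 scale (limma adjusted p = 6.84e-06). DREB1A, also called CBF3, which activates cold-response genes, had 4.43, 6.01 and 10.8 in Col and 0, 0.0512 and 0.0515 in hda6-6. DOGT1, a UDP-glucosyltransferase that glucosylates the fungal toxin deoxynivalenol and brassinosteroids, had 117, 118 and 96.4 in Col and 7.76, 8.02 and 8.99 in hda6-6. In all 3 genes the groups were far apart, but hda5-1 and hda9-1 lay near hda6-6: ORA47 was at 3.63 to 5.89 in those 6 libraries and DOGT1 at 11 to 23.

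The 14 largest falls were lower in the other mutants too. Their log2 fold changes against Col ranged from -6.07 to -3.67 in hda6-6, from -4.97 to -1.43 in hda5-1 and from -6.65 to -1.12 in hda9-1; these comparisons share the Col libraries. Of the 14, 6 were also called lower against hda5-1 and hda9-1: ORA47, DREB1A, the PB1 domain gene AT1G70640, the low-sulfur response gene LSU1, the B-box factor gene BBX29 and the uncharacterized AT4G12735. The remaining falls included the uncharacterized AT2G15020 and AT4G08555, the exostosin family gene AT5G20260, the F-box gene AT4G34550, the cell wall gene EXPA8, UGT73C6 and the ubiquitin ligase gene DIP2. AT4G08555 fell from 185, 217 and 173 to 11.9, 12.7 and 11.6 and was at 6.17 to 21 in the other mutants. For such genes a difference of hda6-6 from Col cannot be told apart from a difference of the Col libraries from all mutant libraries.

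**Figure D2:**
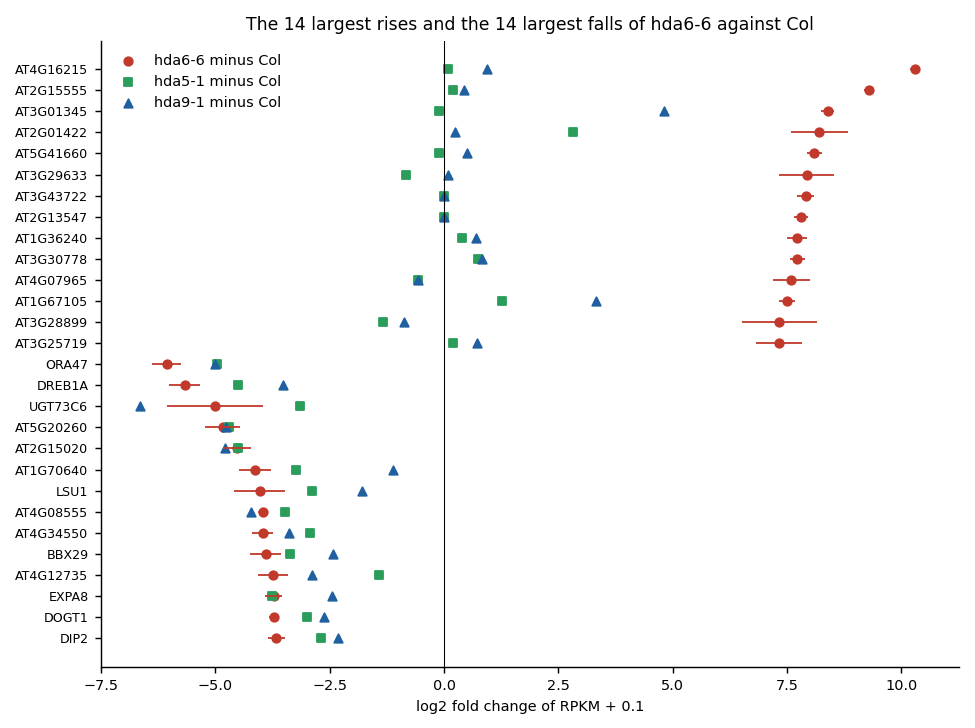
Log2 fold change of RPKM + 0.1 against Col in hda6-6 (red circles, with SE), hda5-1 (green squares) and hda9-1 (blue triangles) for the 14 largest rises and the 14 largest falls of hda6-6, n = 3 libraries per genotype. The rises stand apart in hda6-6 (7.32 to 10.31), whereas the falls lie at or below -1.12 in all 3 mutants. Both sets were ranked by the hda6-6 values, so their distance from Col in hda6-6 follows from the choice.

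Genes of phosphate starvation were lower in hda6-6. When phosphate is short, plants induce transporters, phosphatases, noncoding RNAs and enzymes that replace phospholipids with sulfolipids and galactolipids; the factor PHR1 binds the P1BS motif in many of these promoters. Of 13 such genes tested, 12 fell and none rose, with a median log2 fold change of -1.78 against 0.055 over all genes. Of all genes tested 5.14% fell and 8.17% rose. In 11 of the 13 every hda6-6 library lay below every Col library, as did 22.2% of all genes tested.

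The promoters are shown because most of these genes carry the motif. P1BS was searched as GNATATNC, a palindromic pattern that reads the same on both strands, in the 1000 bases before the start of each gene in the RefSeq annotation of TAIR10. It was found in 9 of the 13 (69.2%), against 5413 of 26711 protein-coding genes (20.3%). The list holds known genes of this response, so the share follows in part from the choice of genes. No match was found for PHT1;4, MGDC, SQD1 and PAP17, which were called lower, whereas PHT1;1, which was not called, had 2. A selection of the matches is shown 5′ to 3′ on the strand of the gene, with the motif in capitals.
SPX1 (chr5:6801539-6801562, plus strand, 735 bases before the start): cctatcaaGAATATTCcatggaat
IPS1 (chr3:3050399-3050422, plus strand, 582 bases before the start): tggtaacgGCATATTCcatcggat
IPS1 (chr3:3050433-3050456, plus strand, 548 bases before the start): tctcaaaaGCATATTCacgtaaga
SQD2 (chr5:90442-90465, minus strand, 340 bases before the start): tgtgaagcGAATATTCattggaat
PS2 (chr1:27466550-27466573, minus strand, 217 bases before the start): gggtaacgGAATATTCttctctta
PPCK1 (chr1:2752089-2752112, plus strand, 27 bases before the start): atcaaaagGAATATTCtcaagagt

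SPX1, a phosphate sensor that holds PHR1 back, had RPKM of 150, 185 and 72.3 in Col and of 24, 17 and 29.3 in hda6-6, a fall by 2.46 ± 0.34 on the log2 scale (limma adjusted p = 0.000822). IPS1, a noncoding RNA that sequesters miR399, had 55.5, 75.3 and 16.6 in Col and 6.97, 3.26 and 7.33 in hda6-6 (-2.88 ± 0.54). The sulfolipid synthase gene SQD2 had 74.1, 114 and 55.3 in Col and 25.1, 27.4 and 29.9 in hda6-6 (-1.5 ± 0.23). The groups did not overlap in any of these genes, but Col replicate 2 was the highest and Col replicate 3 the lowest Col library in each. This order of the Col libraries held for all 13 genes.

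The other members that fell cover further parts of the response. They were the acid phosphatase PAP17 (-2.20), the pyrophosphatase gene PS2 (-2.26), the kinase gene PPCK1 (-2.19), the galactolipid synthases MGDC (-2.18) and MGD2 (-1.57), SQD1 of sulfolipid synthesis (-1.34), the transporter PHT1;4 (-1.43), the IPS1-like AT5G03545 (-1.78) and SPX3 (-1.42). SPX3 overlapped between the groups. PHT1;1, the main root phosphate transporter, had 40.9, 45.6 and 32 in Col and 29.9, 25.1 and 39.5 in hda6-6 and did not pass the test. Outside the list, and chosen after the values were seen, the glycerol-3-phosphate permease gene G3Pp1 fell by 2.59 ± 0.32 and PHO1;H1, of phosphate export, by 1.47 ± 0.29, whereas PHO2, which marks phosphate transporters for degradation, was at -0.30 ± 0.11 (limma adjusted p = 0.0706).

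Against hda5-1 and hda9-1, 5 of the 13 were called lower, PAP17, MGD2, PHT1;4, SQD1 and AT5G03545, and none higher, with a median of -1.19. The median against the shared Col libraries was -1.68 in hda5-1 and 0.32 in hda9-1. SPX1 stood at 13.4, 26.4 and 45.3 in hda5-1 and at 110, 73.3 and 85.1 in hda9-1, so that hda6-6 was at the level of the former. The spread among Col libraries and its part in these results was not tested. Leaving out 1 library left 10 to 12 members called lower, the calls of SPX3 and AT5G03545 being lost without Col replicate 1 or 2 or hda6-6 replicate 1 or 2 (limma adjusted p = 0.069 to 0.137).

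**Figure D3:**
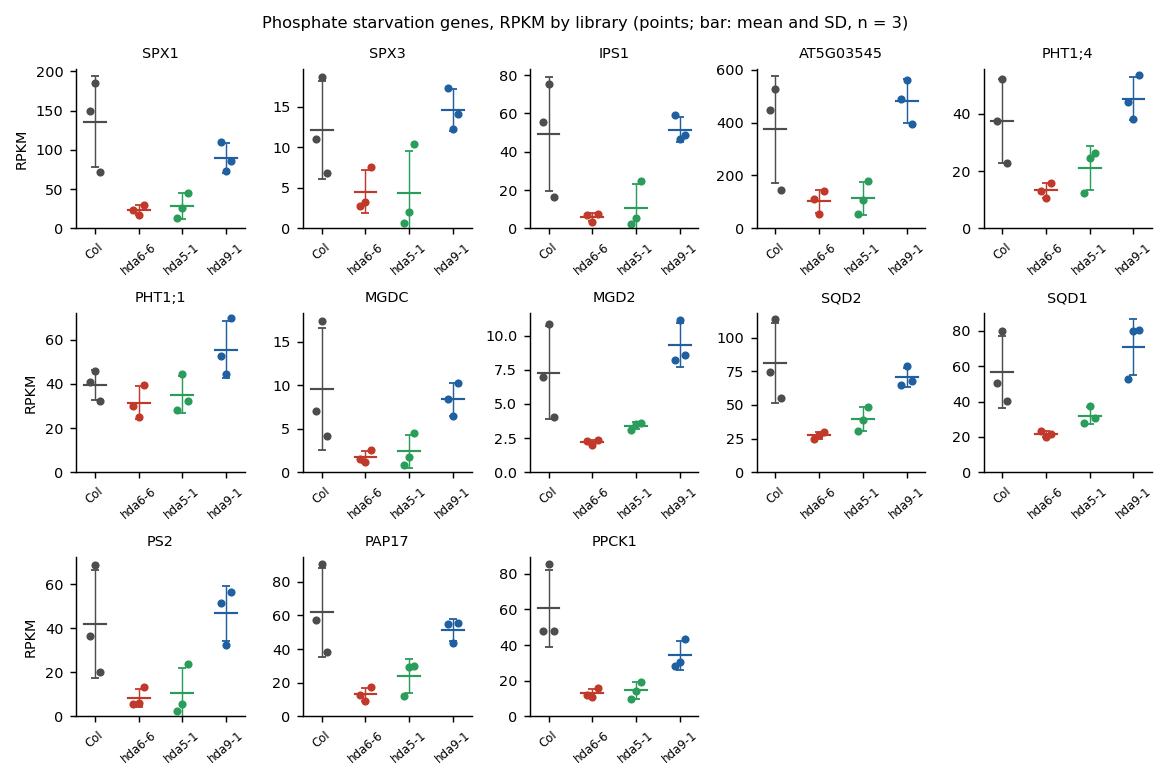
RPKM of 13 phosphate starvation genes in each library of Col, hda6-6, hda5-1 and hda9-1 (points; bar, mean and SD, n = 3; bars are clipped at 0). In 11 genes all hda6-6 points lie below all Col points; SPX3 and PHT1;1 overlap.

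Sulfur deficiency genes were also lower in hda6-6. These genes are induced when sulfate runs short and include the LSU genes, whose functions are only partly known, ATSDI1 and BGLU28, which are tied to glucosinolate use, and the APR enzymes that reduce activated sulfate. Of 13 tested, 9 were lower and 1 was higher in hda6-6 (5.14% and 8.17% of all genes tested), and the median log2 fold change was -1.36. LSU1 had RPKM of 25.4, 73.7 and 18.8 in Col and of 2.52, 0.901 and 2.99 in hda6-6 (-4.03 ± 0.56). LSU2 had 12.7, 22.9 and 12.2 in Col and 3.48, 2.01 and 2.52 in hda6-6 (-2.50 ± 0.27). APR3 had 63.7, 99.7 and 45.9 in Col and 15.8, 13.2 and 13.4 in hda6-6 (-2.23 ± 0.24). No hda6-6 library reached a Col library in these genes, and Col replicate 2 was again the highest.

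BGLU28 (-3.17), ATSDI1 (-2.74), APR1 (-1.81), AT1G04770 (-1.36), SHM7 (-1.31) and APR2 (-1.22) also fell, although the call of BGLU28 was lost without hda6-6 replicate 1 (limma adjusted p = 0.0591). The sulfate transporters did not follow: SULTR1;2 was at 0.34 and SULTR4;2 at -0.20, neither past the test, SULTR2;1 was lower by less than 2-fold, and SULTR1;1 was called higher at RPKM under 1 (0.327 to 0.523 in hda6-6), a call lost in most alternative settings. Against the other mutants LSU1, LSU2, APR3 and APR2 were called lower. Of these, APR2 had 19.1, 16 and 17.1 in hda6-6, 38.4, 49.5 and 43.5 in hda5-1 and 36.3, 29.8 and 28.7 in hda9-1.

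The aliphatic glucosinolates are sulfur-containing defense compounds made from methionine under the control of MYB28 and MYB29. Of 18 genes of the pathway, 7 were lower and 1 was higher (5.14% and 8.17% of all genes tested), with a median log2 fold change of -0.78. MYB29 had RPKM of 6.33, 5.83 and 7.66 in Col and of 1.63, 1.84 and 1.5 in hda6-6 (-1.93 ± 0.15), and MYB28 fell by 1.34 ± 0.13. CYP79F1, which starts the core pathway, had 139, 129 and 180 in Col and 42, 47.8 and 42.9 in hda6-6 (-1.74 ± 0.13). The side-chain oxygenases FMO GS-OX1 (-1.40) and FMO GS-OX3 (-1.31), IPMI1 (-1.05) and the sulfotransferase SOT18 (-1.04) fell as well. Without Col replicate 3 IPMI1 was at -0.92, under the fold threshold, and SOT18 at the threshold. Other genes of chain elongation, to which IPMI1 also belongs, were not called lower: BCAT4 was at -0.04 and MAM1 at 0.10, both overlapping, and the chain elongation gene IMS2 was higher by 1.01, just past the fold threshold, a call lost without Col replicate 3 or hda6-6 replicate 1 or 3 (0.94 to 0.99). Against hda5-1 and hda9-1 none was lower and 1, MYB76, was higher, and the medians against Col were -0.93 in hda5-1 and -0.69 in hda9-1.

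Copper-zinc superoxide dismutases were higher in hda6-6. These enzymes detoxify superoxide, and in plants short of copper miR398 cuts their transcripts and that of their copper chaperone CCS. The list of copper genes was put together after the values were seen. CSD2, the plastid enzyme, had RPKM of 1.93, 2.29 and 2.38 in Col and of 7.12, 7.6 and 8.07 in hda6-6 (1.75 ± 0.13, limma adjusted p = 3.69e-05). CSD1, the cytosolic enzyme, had 4.13, 4.28 and 3.62 in Col and 9.14, 8.07 and 8.24 in hda6-6 (1.06 ± 0.12). CCS had 0.603, 0.691 and 0.584 in Col and 1.54, 1.6 and 1.61 in hda6-6 (1.21 ± 0.17). None of the groups overlapped, but the calls of CSD1 and CCS were lost with a pseudocount of 1, and CSD1 was at 0.99 without Col replicate 3. AT3G15640, a gene for a cytochrome c oxidase subunit and a miR398 target as well, was higher by 0.74 ± 0.11, under the 2-fold threshold.

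The sequences are shown because these genes share a site for the same miRNA. The mature miR398c is printed with its seed (bases 2 to 8) in capitals, as DNA. In the sites the capitals mark bases that pair with it as A with T or G with C, and weaker G:U pairs stay in lower case. All are 5′ to 3′ on the strand of the gene, from RefSeq and the TAIR10 genome.
miR398c (chr5:4694778-4694798, plus strand): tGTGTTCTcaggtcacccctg
CSD1, outside the coding sequence and across a splice junction (chr1:2827177-2827685, plus strand): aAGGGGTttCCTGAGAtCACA
CSD2, coding (chr2:12015572-12015592, plus strand): tgcGGGTGACCTGgGAAacat
CCS, coding (chr1:4267521-4267541, minus strand): attGGGaGACCTGgGAACACt
AT3G15640, outside the coding sequence (chr3:5299204-5299224, plus strand): aAGGtGTGACCTGAGAAtcac
Of the 21 positions, 17 paired in this way in CSD1, 13 in CSD2 and 15 each in CCS and AT3G15640. A further 3 positions in CSD2 and 1 each in CCS and AT3G15640 were G:U pairs. These are matches of letters, and cleavage was not measured. The MIR398c precursor itself was at 12.6, 12.5 and 14.1 in Col and at 9.37, 13.5 and 5.8 in hda6-6, overlapping and not called (-0.53 ± 0.26).

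Copper uptake genes were lower or not called. FRO4, a copper-reducing oxidase at the root surface, had RPKM of 9.61, 11.3 and 9.22 in Col and of 3.41, 4.04 and 4.63 in hda6-6 (-1.30 ± 0.14), and its neighbor FRO5 fell by 1.68 ± 0.36 at RPKM under 1. The transporters COPT2 (-0.91 ± 0.11) and COPT1 (-0.71 ± 0.10) were below Col in all libraries but under the 2-fold threshold. FSD1, the iron superoxide dismutase that replaces the copper-zinc enzymes when copper is short, was at 888, 921 and 855 in Col and 870, 787 and 900 in hda6-6, with no difference past the test (-0.06 ± 0.09). The other mutants were also above Col: CSD1 was at 12.6 to 33.6 in hda5-1 and at 11.4 to 16.2 in hda9-1, above hda6-6, and no copper gene was called higher against them. FRO5 was called lower against the other mutants, while FRO4 missed the fold threshold (-0.97).

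**Figure D4:**
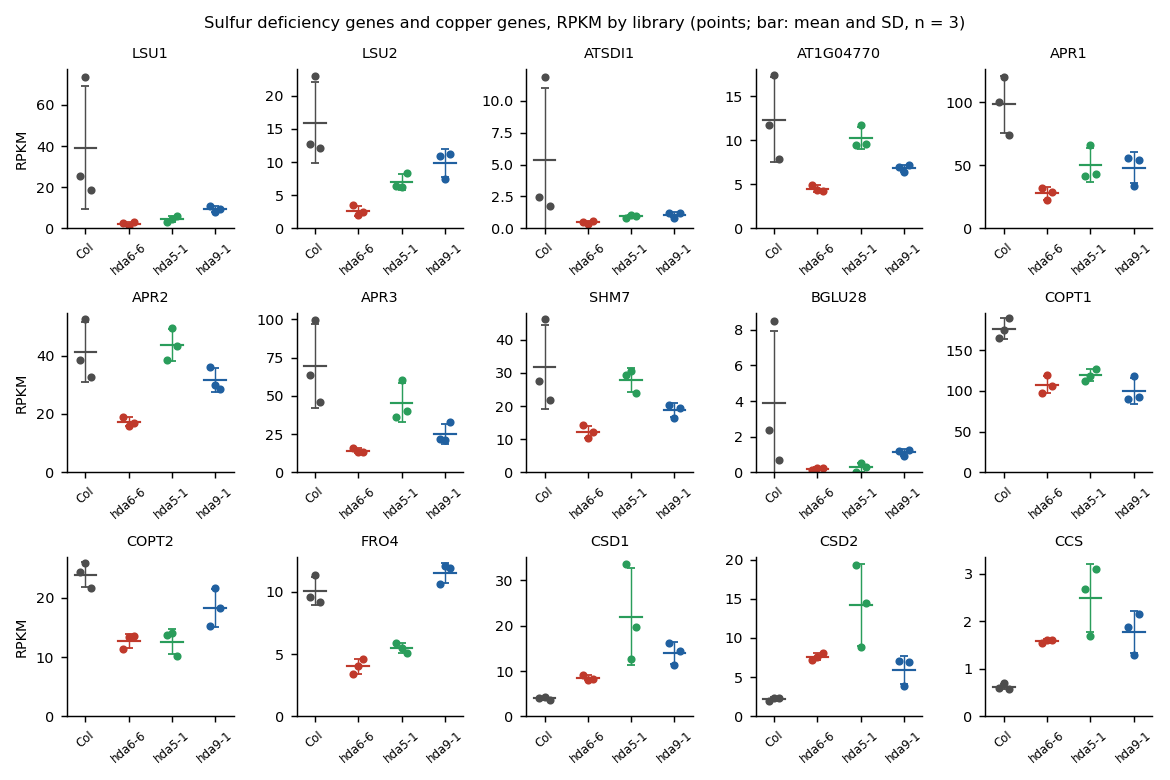
RPKM of 9 sulfur deficiency genes and 6 copper genes in each library of Col, hda6-6, hda5-1 and hda9-1 (points; bar, mean and SD, n = 3; bars are clipped at 0). The mean of each sulfur gene is lowest in hda6-6, the transporters and FRO4 are below Col, and CSD1, CSD2 and CCS lie above Col in all 3 mutants.

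Genes of abscisic acid (ABA) and dehydration were in part lower. ABA is made through NCED3, restrained by the phosphatases ABI1, ABI2 and HAI2, and raises protective genes such as LTI78. Of 23 tested, 8 fell and none rose (median -0.81), against 5.14% and 8.17% of all genes tested. NCED3 had RPKM of 6.86, 13 and 9.94 in Col and of 1.56, 1.47 and 2.89 in hda6-6 (-2.29 ± 0.30). LTI78 had 82.6, 99 and 128 in Col and 19.2, 21.9 and 22.5 in hda6-6 (-2.26 ± 0.15), and in the others it was at 78.2 to 107 in hda5-1 and 21.3 to 40.5 in hda9-1. LTI78 and HAI2 were below every Col library in all hda6-6 libraries, and HAI2 fell by 2.23 ± 0.36. The homeobox genes HB-12 (-1.92) and HB-7 (-1.28), the proline synthesis gene P5CS1 (-1.49) and the phosphatases ABI2 (-1.47) and ABI1 (-1.35) also fell. The cold-regulated genes of the list did not: COR15A was at 0.31, KIN2 at 0.31 and COR47 at 0.43, and COR15B, at 0.76, was higher in all 3 libraries but under 2-fold. LTI78 was called lower against the mean of hda5-1 and hda9-1 as well, although it overlapped with hda9-1. KIN1, which overlapped with Col (0.05 ± 0.50), was also called lower against that mean. The galactinol synthase genes GolS2 and GolS4, picked after their values were seen, fell by 2.99 ± 0.25 and 2.98 ± 0.27. Both were also called lower against the mean of the other mutants (-1.18 and -2.16), but GolS2 overlapped with hda5-1 (2.36 to 3.39 there, 1.57 to 3.18 in hda6-6).

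Proline breakdown moved the other way. ERD5, the proline dehydrogenase gene, also chosen after its values were seen, rose from RPKM of 30.7, 35.3 and 21.2 in Col to 244, 261 and 193 in hda6-6 (3.02 ± 0.19). The hda6-6 libraries were above every other library, with 90.2 to 116 in hda5-1 and 48.2 to 103 in hda9-1. So P5CS1 of synthesis was lower and ERD5 of degradation was higher in the same libraries.

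Among the enzyme families that glycosylate and oxidize small molecules, falls were more frequent than rises. Of 58 UDP-glycosyltransferases tested, 16 fell and 4 rose (median -0.40), and of 177 cytochromes P450, 38 fell and 19 rose (median -0.15). Of all genes tested 5.14% fell and 8.17% rose, so the rises in both families were near the share of all genes. UGT74E2, which glucosylates the auxin indole-3-butyric acid, had RPKM of 169, 155 and 126 in Col and of 18.4, 19.2 and 7.41 in hda6-6 (-3.43 ± 0.33). It was also called lower against the mean of hda5-1 (44.1 to 65.4) and hda9-1 (20.8 to 36.9), as was UGT76E11 (-2.82 against Col). The tandem genes UGT73C1, UGT73C2, UGT73C6 and DOGT1 all fell, UGT73C2 at RPKM under 1 with a call lost in most leave-outs, but they are close in sequence, so their reads may not be separable. CYP81D11, which responds to xenobiotics, had 329, 271 and 246 in Col and 31.3, 34.6 and 35.1 in hda6-6 (-3.05 ± 0.12). CYP706A6 (-3.47), CYP71B26 (-3.22) and CYP89A2 (-2.93) fell too. The ABA hydroxylase gene CYP707A2 fell by 2.79 ± 0.23, and CYP81F2, which modifies indole glucosinolates, rose by 2.38 ± 0.32. With a pseudocount of 1 the P450 counts were 31 lower and 6 higher. Against the same Col libraries 29 P450 genes fell and 13 rose in hda5-1, and 24 fell and 6 rose in hda9-1. For the UDP-glycosyltransferases these counts were 12 and 8 in hda5-1 and 12 and 2 in hda9-1. In hda6-6 against the mean of both mutants 7 P450 genes were lower and 10 higher, and 2 UDP-glycosyltransferases were lower and 0 higher. Of all genes tested 0.883% were lower and 4.0% higher there.

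Of 79 NAC transcription factors, a family that includes regulators of stress and senescence, 13 fell and 3 rose, the latter at RPKM of 1.27 or less. The shares over all genes tested were 5.14% and 8.17%. NAC019 had RPKM of 10.3, 13.7 and 10.7 in Col and of 2.36, 2.98 and 2.85 in hda6-6 (-2.04 ± 0.15), and NAC032 (-1.70), NAC13 (-1.69) and NAM (-1.63) followed. AOX1A, the alternative oxidase of mitochondria, was at 136, 138 and 114 in Col and at 36, 35.5 and 35.6 in hda6-6 (-1.85 ± 0.09), 1 of 3 falls among 15 redox genes with AGC2-1 (-1.59) and the catalase gene CAT2 (-1.14). Both NAC13 and AOX1A had lower values in hda6-6 than in any library of hda5-1 and hda9-1, with log2 differences of -0.96 and -0.89 that stayed under 2-fold.

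Several families of cell wall genes rose. Xyloglucan endotransglucosylases (XTH) cut and rejoin xyloglucan chains, and 13 of 30 rose while 2 fell (median 0.96). Of all genes tested 8.17% rose and 5.14% fell. XTR6 had RPKM of 8.36, 6.8 and 5.48 in Col and of 220, 323 and 145 in hda6-6 (4.98 ± 0.27), and XTH33 had 0.159, 0.13 and 0 in Col and 7, 8.01 and 7.22 in hda6-6 (5.37 ± 0.34). XTH15 rose from 8.48, 6.86 and 7.94 to 84.7, 84 and 103 (3.53 ± 0.12). In these genes all hda6-6 libraries were far above Col and above every library of hda5-1 and hda9-1. Against the mean of those mutants 6 XTH genes were called higher, XTR6, TCH4, XTH33, XTH18, XTH15 and XTH25, and XTH31 was called lower. XTH18 overlapped with hda5-1 (93.7 to 192.1 there, 129.7 to 173.8 in hda6-6). XTH16 (2.87) and XTH9 (2.58) also rose against Col. Against the same Col libraries the family median was 0.79 in hda5-1 and 0.64 in hda9-1, with 13 and 8 members called higher.

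Expansins, which loosen walls without cutting them, had 5 of 25 members higher and 6 lower (8.17% and 5.14% of all genes tested). The expansin-like A genes rose: EXLA2 had RPKM of 1.84, 2.18 and 2.04 in Col and of 59.6, 78.5 and 55.4 in hda6-6 (4.92 ± 0.14), EXLA1 rose by 3.88 ± 0.12 and EXLA3 by 2.70 ± 0.19. All 3 were also called higher against the mean of hda5-1 and hda9-1, but EXLA1 and EXLA3 overlapped with hda5-1. EXLA1 was at 177.8 to 244 in hda6-6 and at 113.7 to 200.5 in hda5-1. Among the alpha-expansins, EXPA8 had 49.7, 60.8 and 70.6 in Col and 3.92, 5.81 and 3.77 in hda6-6, EXPA1 fell by 2.01 ± 0.08, and EXPA15 (-1.66) and EXPA10 (-1.52) fell, whereas EXPA16 rose (2.26). No expansin was called lower against the mean of the other mutants, and EXPA8 was at -3.77 in hda5-1 and -2.45 in hda9-1 against Col. The difference between the subfamilies was not tested.

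Arabinogalactan and fasciclin-like proteins, heavily glycosylated proteins of the wall and plasma membrane, had 18 of 44 members higher and none lower (median 0.68). Of all genes tested 8.17% were higher and 5.14% lower. FLA9 had RPKM of 23.6, 37.1 and 29.9 in Col and of 163, 264 and 214 in hda6-6 (2.81 ± 0.20). AGP7 had 12.8, 20.5 and 19.9 in Col and 82.9, 136 and 126 in hda6-6 (2.69 ± 0.23), and AGP17 (2.13) and AGP18 (1.96) followed. In 28 of the 44 every hda6-6 library lay above every Col library, against 28.3% of all genes tested. The medians against Col were 0.49 in hda5-1 and 0.63 in hda9-1. Against the mean of both mutants 1 member was higher in hda6-6 (AGP17, 1.01) and 2 were lower. EXO (3.56 ± 0.25) and PHI-1 (3.53 ± 0.39), related extracellular proteins tied to growth and chosen after their values were seen, rose to 425 to 850 and to 229 to 595 RPKM, above all libraries of the other mutants.

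Receptor kinases at the wall rose in part. Of 33 cysteine-rich receptor-like kinases, 10 were higher and 1 was lower (median 0.50), and of 13 wall-associated kinases 4 were higher (median 0.36). Over all genes tested 8.17% were higher and 5.14% lower. CRK14 had RPKM of 0.603, 0.657 and 0.376 in Col and of 5.95, 4.33 and 4.29 in hda6-6 (2.95 ± 0.23), and WAKL2 had 1.99, 2.5 and 1.13 in Col and 12.3, 17.9 and 9.88 in hda6-6 (2.79 ± 0.30). Many members are low, and with a pseudocount of 1 the counts fell to 5 and 2 higher. WAKL2, CRK4 and CRK39 were also called higher against the mean of hda5-1 and hda9-1. WAKL2 and CRK4 overlapped with hda5-1, where CRK4 was at 2.02 to 2.59 (2.37 to 2.82 in hda6-6). The call of CRK39 against Col was lost without any of the hda6-6 replicates (limma adjusted p = 0.0545 to 0.0595). CRK14 was at 5.33 to 8.64 in hda5-1, at or above most hda6-6 values.

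Sugar-related genes changed in several groups. Of 16 genes induced by sugar starvation 4 rose and 12 were not called (median 0.75), while 8.17% of all genes tested rose and 5.14% fell. In 13 of the 16 every hda6-6 library was above every Col library, against 28.3% of all genes tested. DIN10, a raffinose synthase-like gene, had RPKM of 348, 299 and 240 in Col and of 1127, 1186 and 936 in hda6-6 (1.88 ± 0.15). ASN1, which makes asparagine, had 179, 188 and 172 in Col and 415, 596 and 488 in hda6-6 (1.46 ± 0.13), and BCAT-2 (1.8) and EXL4 (1.34) rose. DIN2, a beta-glucosidase gene, was at -1.06 and overlapped. None of the 16 was called against hda5-1 and hda9-1, where the median was 0.38. Among starch genes 5 of 16 fell, with the granule-bound synthase GBSS1 at 10.9, 13.3 and 12 in Col and 4.22, 4.43 and 3.65 in hda6-6 (-1.54 ± 0.12) and the beta-amylase CT-BMY at -1.32. Without Col replicate 1 or 2, or without any of the hda6-6 replicates, 3 starch genes were called lower. Of 58 sugar transporters 6 rose and 7 fell, against the same shares of 8.17% and 5.14%. Their summed RPKM was 994 to 1152 in Col and 2053 to 2380 in hda6-6. It was also above Col in hda5-1 (2128 to 2187) and hda9-1 (1480 to 1795). The hexose transporter STP1 rose from 318, 320 and 320 to 1201, 1487 and 1328 (2.06 ± 0.10), and the polyol transporter PMT6 rose by 2.33 ± 0.12. The sucrose exporters SWEET11 (-1.15) and SWEET13 (-2.50) fell.

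Auxin-responsive genes included 6 of 19 that rose and 2 that fell (median 0.22), against 8.17% and 5.14% of all genes tested. LBD29, a lateral root factor, rose by 2.60 ± 0.22 from RPKM of 0.144 or less to 1.07 to 1.27. BRU6 and GH3.3, which conjugate auxin to amino acids, rose by 1.82 ± 0.14 and 1.37 ± 0.15. BRU6 had 5.04, 4.27 and 4.03 in Col and 15.7, 13.8 and 18.4 in hda6-6, with no overlap. The repressor gene SHY2 rose by 1.24 ± 0.17, while IAA29 (-1.96) and the auxin synthesis gene YUC2 (-1.76) fell, both at RPKM under 2. LBD29 was the member called against hda5-1 and hda9-1. In the gibberellin, karrikin and strigolactone list 4 of 17 rose and 1 fell, against the same 8.17% and 5.14%. BZS1, a B-box factor gene, had 1.49, 1.9 and 1.26 in Col and 10.5, 14.1 and 11.8 in hda6-6 (2.90 ± 0.18). GA2OX2, which inactivates gibberellins, rose by 1.98 ± 0.14, but ATGA2OX1 was called lower. CCD8 and GA3OX1 were also called higher.

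Of 19 salicylic acid defense genes (median 0.49) 3 rose, against 8.17% of all genes tested: SARD1 (1.56), FMO1 (1.49) and SAG101 (1.03). Without Col replicate 2 the number was 5, while SAG101 was at 0.82 without Col replicate 3. PR1 had RPKM of 1.4, 2.43 and 0 in Col and of 1.11, 0.245 and 0.554 in hda6-6, with overlapping groups. PR5 was at -0.97 against Col and was called lower against the other mutants (-1.57). In the flavonoid list the anthocyanin regulators PAP1 (-3.0) and MYB90 (-2.82) and the repressor MYBL2 (-2.30) fell, while DFR of the late pathway had 0.594, 1.16 and 0.237 in Col and 3.19, 4.01 and 5.2 in hda6-6 (2.64 ± 0.43). Regulators and DFR thus differed in direction. In the triterpene clusters BARS1, a baruol synthase gene, rose from at most 0.0372 to 1.46, 0.979 and 1.19 (3.45 ± 0.26) and was called higher in both comparisons.

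Several functions showed few or no calls. Over all genes tested 8.17% were called higher and 5.14% lower, so the single falls in the lists below were near that share. No gene of 12 for brassinosteroids and none of 14 for the unfolded protein response was called against Col, with medians of 0.06 and 0.05. In the mitotic cell cycle 1 of 20 fell, the inhibitor gene ICK1 (-1.5), in the DNA damage response 1 of 12, TSO2 (-1.06, and -0.96 without Col replicate 3), and in lignin synthesis 1 of 20, FAH1 (-1.63). Of 29 histone genes 1, HTR11, fell, and 28 were not called. The log2 fold change was negative in 26 (45.2% of all genes tested) with a median of -0.45, and in 24 every hda6-6 library lay below every Col library (22.2% of all genes). Leaf photosynthesis genes had a median of -0.26 with 1 of 20 lower, LHCB2.2 (-1.16).

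**Figure D5:**
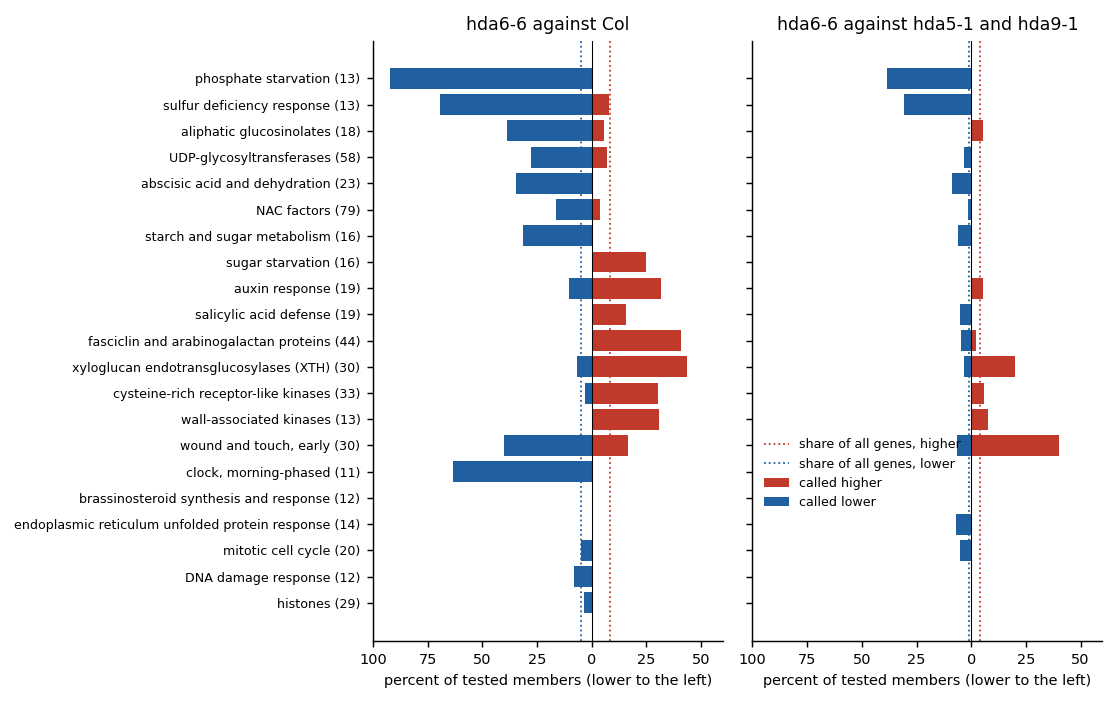
Percent of the tested members of 21 gene lists and families (number tested in parentheses) called higher (red, to the right) or lower (blue, to the left) in hda6-6 against Col (left panel) and against hda5-1 and hda9-1 (right panel); dotted lines mark the share of all genes (8.17% and 5.14%, and 4.0% and 0.883%). Phosphate starvation stands at 12 of 13 lower on the left and 5 of 13 on the right, whereas the morning clock genes, 7 of 11 lower on the left, have none on the right.

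Morning-phased clock genes, which peak soon after dawn, were called lower in 7 of 11 cases (median -1.71), against 5.14% of all genes tested. In all 11 every hda6-6 library lay below every Col library, against 22.2% of all genes tested. CDF1 had RPKM of 7.85, 7.85 and 9.86 in Col and of 1.38, 1.04 and 0.823 in hda6-6, and CCA1 fell by 2.13 ± 0.22. The medians were -1.48 in hda5-1 and -1.84 in hda9-1 against the same Col libraries, and none of the 11 was called against those mutants. The time of harvest is not given in the sources used here, and a difference in it cannot be told apart from an effect of genotype.

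Among 30 genes induced early by wounding and touch, 12 were lower and 5 were higher than in Col, but 12 were higher and 2 were lower than in hda5-1 and hda9-1. Of all genes tested 5.14% were lower and 8.17% higher than in Col, and 4.0% were higher and 0.883% lower than in those mutants. TCH4 had RPKM of 249, 278 and 127 in Col and of 1274, 1916 and 907 in hda6-6 (2.66 ± 0.34), and 143 to 771 in the other mutants. TCH3, a calmodulin-like gene, rose by 3.68 ± 0.19 and WRKY18 by 3.16 ± 0.32. STZ had 178, 203 and 157 in Col, 20.5, 46.4 and 63 in hda6-6 and 10.3 to 16.1 in hda5-1 and hda9-1, and was thus lower than Col and higher than the other mutants. In all 9 genes were called lower than Col but higher than hda5-1 and hda9-1, among them STZ, ERF13, ERF104 and DIC2 of this list, DIC2 losing its call against Col without Col replicate 2 or hda6-6 replicate 1. How these genes, which respond within minutes to handling, bear on the other groups was not tested.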

How the data were processed

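RPKM values per gene were made by the authors from poly-A reads (base calling with CASAVA 1.8, alignment to TAIR10 with Bowtie2, counting with RackJ) and deposited in 1 column per library; strand use and the rule for reads that match several genes are not given in the sources used here. The methods state 3 biological repeats for Col and hda6-6; for hda5-1 and hda9-1 the p-values measure the spread between libraries.

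RPKM was tested on the log2(RPKM + 0.1) scale with limma 3.58.1 in R 4.3.3 (intensity trend, Benjamini-Hochberg over 22433 genes), which understates changes of low genes. Genes were kept at RPKM above 0.1 in at least 3 of the 6 Col and hda6-6 libraries and called at adjusted p under 0.05 and 2-fold. The second contrast was hda6-6 minus the mean of hda5-1 and hda9-1 over 9 libraries; fld-6 and fve-4 entered only an alternative fit. The script was tested on simulated data. Whole reads could not be recovered from RPKM (29.5% to 40.3% of values came out whole within 0.02), so no count test was run and the depths are estimates that cover counting error only. An exact permutation test of 3 against 3 cannot go below p = 0.1.

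Named were HDA6, then the 14 largest rises and 14 largest falls among called genes that were not transposable elements or pseudogenes, had a mean RPKM of at least 2 in the higher group and did not overlap, then up to 4 called members per gene list or family and members its function turns on; genes outside this rule are marked in the text. Members and lists were chosen with earlier results of these data known, and the copper list and the XTH and expansin families were added after values were seen; genes that share a family's symbol but are annotated as another protein were left out of it. Of the genes tested, those with a RefSeq symbol carry it, and coordinates and sequences come from RefSeq annotation of TAIR10. Alternatives were another pseudocount, 2 other filters, median-of-ratios scaling, all 14 libraries in the fit, a replicate block, no fold threshold, unadjusted p and leaving out each library. Joins and counts used pandas 2.3.3 and numpy 2.4.6 under Python 3.11.15, and plots matplotlib 3.10.9. Overlapping or antisense genes and near-identical copies may share reads.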

Additional observations from a re-analysis of the deposited data

Results flagged for a closer look

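A few genes, picked for this pattern, lay above Col in every hda6-6 library and below Col in every hda5-1 and hda9-1 library. The separation of hda6-6 from these mutants thus followed from the choice, and its size is given without a test. SDC, an F-box gene known to be silenced by DNA methylation in vegetative tissue, had RPKM of 0.967, 0.857 and 0.557 in Col. It had 7.45, 5.61 and 5 in hda6-6 and 0.0313 to 0.129 in hda5-1 and hda9-1, a log2 difference from their mean of 4.99. AT5G35480, an uncharacterized gene, had 3.94, 9.9 and 13.3 in Col, 51.6, 63.4 and 75.2 in hda6-6 and 0.881 to 2.66 in the other mutants, a difference of 5.17. MRU1, its neighbor by locus number, had 1.1, 1.01 and 1.13 in Col, 8.44, 7.37 and 6.45 in hda6-6 and 0.16 to 0.688 in the other mutants, a difference of 4.15. AT1G35617, an uncharacterized gene, had 0.116, 0.253 and 0.126 in Col and 5.74, 6.99 and 3.58 in hda6-6, was listed at 0 in all hda5-1 and hda9-1 libraries, and differed by 5.74 on the log2(RPKM + 0.1) scale. The noncoding RNA gene AT2G05995 had 0.129, 0.421 and 0.14 in Col and 4.4, 4.52 and 3.4 in hda6-6, a difference of 5.0 from the other mutants.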

How the results depend on the processing

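With a pseudocount of 1 the genes called against Col were 921 higher and 705 lower, and against hda5-1 and hda9-1 350 and 80; of the original calls against Col, 919 higher and 704 lower ones were kept. With genes above RPKM 1 the number higher than in hda5-1 and hda9-1 was 473. With no fold threshold the counts were 4526 higher and 3560 lower than Col and 1934 and 1904 against the other mutants. Leaving out 1 library gave 1599 to 2023 higher and 1080 to 1182 lower genes against Col, and 801 to 940 and 149 to 255 against the other mutants. The other settings stayed within 1.5 times of the counts.

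Deviations from the group mean correlated across genes at r = 0.154, 0.09 and -0.056 between same-numbered Col and hda6-6 libraries. Between differently numbered ones r was -0.17 to 0.073. These values do not settle whether the numbers pair the libraries. A replicate block gave 1851 higher and 1175 lower genes against Col and 901 and 208 against the other mutants. Of 448 genes followed, the named genes and all called members of the lists, none changed direction in any of these settings. Calls were lost for 123 with a pseudocount of 1, for 18 with no filter, for 15 with median-of-ratios scaling, for 14 with all 14 libraries, for 0 of 381 with genes above RPKM 1, for 2 with the block, and for 35 to 53 when 1 library was left out. Depth limits genes under an RPKM of about 1, whose calls turn on few reads. All comparisons with Col use the same 3 Col libraries.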
